A study of Mus musculus with 9 samples.

Results

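Fetal thymic lobes of Foxn1933/1089 mice were compared with wild type lobes across all transcript clusters of a whole-transcriptome array. The comparison used the 6 of 9 arrays labelled with these genotypes, 3 of Foxn1933/1089 (Foxn1 mutants below) and 3 of wild type (wt), and all 22142 clusters mapped to a chromosome. Of these clusters, 19527 carried a gene symbol. All lobes came from C57BL/6 embryos at day e13.5. The mutants carried the Foxn1 alleles 933 and 1089, whose sequence changes the labels do not describe, and no allele, transgene or treatment is given for the wild type. The other 3 arrays, from Tbx1neo2/neo2 lobes of the same strain and age, entered the fit only to help estimate the spread between arrays. Total RNA was amplified, labelled with biotin and hybridised to Clariom S arrays, and the values are on the log2 scale. The labels give neither the sex of the embryos, nor how many lobes were pooled, nor that replicate arrays are separate embryos, and p-values here reflect only how these samples vary.

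The thymus forms from endoderm of the pharyngeal pouches, wrapped by mesenchyme that derives largely from the neural crest. FOXN1 is the transcription factor that epithelial cells of this rudiment need in order to mature, attract blood-borne progenitors and steer them into the T cell lineage. Its known targets in cortical epithelium include the proteasome subunit gene Psmb11, the protease gene Prss16, the Notch ligand gene Dll4 and the chemokine gene Ccl25.

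A check of the tissue label divided the arrays within each genotype. Prss16 read 14.43 and 13.98 on wild type 2 and 3 and 4.24 on wild type 1, and in the mutants 14.10 and 13.87 on replicates 1 and 3 and 4.45 on replicate 2. Psmb11 split the same way, with 3.40 on wild type 1, 3.36 on mutant 2 and 10.36 to 10.66 on the other 4. The defining markers of cortical epithelium were therefore at the level of the negative-control probes (array medians 4.27 to 4.94) on 1 array of each genotype. Most results below are given over all arrays and again without those 2. A value given alone is over all arrays unless its paragraph names the set. The second set is called the 4 Prss16-high arrays, 2 of each genotype, and was fitted with the 3 Tbx1 mutant arrays, so that a group of 2 is assumed to vary like the rest. It was chosen by Prss16, so for genes that split with Prss16 a likeness between genotypes there is in part set by that choice. The Y-linked gene Uty also divided the genotypes, as described with the sex-linked genes. Sample titles carry 3 date codes whose meaning is not given: code A holds wild type 3 and mutant 2, code B wild type 2 and mutants 1 and 3, and code C wild type 1.

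No cluster separated the genotypes after adjustment. With limma, 0 of 22142 clusters (0%) passed an adjusted p of 0.05 over all arrays (lowest adjusted p = 1.00), and 0 (0%) did so without the 2 Prss16-low arrays (lowest adjusted p = 0.87). Before adjustment, 896 clusters had a p under 0.05 over all arrays (4.05%), 505 higher in the mutants (2.28%) and 391 lower (1.77%). On the Prss16-high arrays 1242 did (5.61%), 593 higher (2.68%) and 649 lower (2.93%). The ranges of the 2 genotypes were disjoint at 1834 clusters (8.28%), 1076 higher (4.86%) and 758 lower (3.42%). With only 2 arrays against 2, groups failed to overlap at 7730 clusters (34.9%), 3945 higher (17.8%) and 3785 lower (17.1%). These shares are the background against which the counts of genes below are read. Genes are therefore given as values, not as changes.

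Large mean differences lay mostly on the lower side. Over all arrays 460 clusters differed by more than 1 log2 unit (2.08%), 124 upward in the mutants (0.56%) and 336 downward (1.52%), while 52.4% of all clusters were above 0. Without the 2 Prss16-low arrays 422 clusters did so (1.91%), 142 upward (0.641%) and 280 downward (1.26%), with 50.6% above 0. Genes high on a single wild type array were among the downward ones. Over all arrays 13 of 16 neuronal genes, high on wild type 1, were below -1. On the Prss16-high arrays 12 of 16 skeletal muscle genes, high on wild type 2, were. The median difference over all clusters was 0.02 and then 0.00. Centring each array on its own median moved it to 0.07 over all arrays, with 739 clusters higher and 285 lower at an unadjusted p under 0.05, and to 0.05 on the Prss16-high arrays, with 804 higher and 489 lower.

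Arrays of different genotype were about as close to each other as arrays of the same genotype once Prss16 was high on both. The median absolute difference across clusters was 0.29 between wild type 2 and wild type 3 and 0.28 between mutants 1 and 3. For the 4 pairs of a wild type and a mutant among these arrays it lay between 0.28 and 0.31. Wild type 1 differed from the other wild type arrays by 0.42 and 0.43, and mutant 2 from the other mutants by 0.40 and 0.41. The 2 Prss16-low arrays, one of each genotype, differed from each other by 0.35, less than either differed from its own group.

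The expression level of a cluster, taken as its mean over all 9 arrays, set how far arrays differed more than it set the direction. The lowest class, under 4 log2 units, held 8152 clusters, of which 7494 were above the negative-control median on none of the 6 arrays. The highest, at 12 and over, held 1537. Median differences in the 6 classes ran from -0.02 (levels 4 to 6) to 0.04 (levels 10 to 12) over all arrays. On the Prss16-high arrays they ran from -0.04 (levels 6 to 8) to 0.06 (under 4). The share of clusters higher in the mutants was 56.2% at level 12 and over and 56.9% at levels 10 to 12, and became 48.0% and 48.3% without the 2 Prss16-low arrays. In the lowest class the share went the other way, from 53.8% to 57.1%. Over all classes and both sets the share lay between 44.9% and 57.1%.

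The classes near background held their own share of low p-values. At an unadjusted p under 0.05 the share was 3.61% under level 4, 4.89% at 4 to 6, 4.20% at 6 to 8, 4.31% at 8 to 10, 4.09% at 10 to 12 and 3.06% at 12 and over. Groups failed to overlap at 9.23% of clusters in the lowest class and at 7.07% to 8.56% in the others. On the Prss16-high arrays the share of low p ran from 3.25% (12 and over) to 6.81% (4 to 6). Groups failed to overlap there at 33.3% (4 to 6) to 40.9% (10 to 12). Genes of low p in the lowest class had little signal above background. Vmn1r123, a vomeronasal receptor gene, read 3.39, 2.90 and 3.37 in wild type and 4.65, 4.13 and 4.11 in the mutants, a difference of 1.08 ± 0.23 (SE). It exceeded its array's negative-control median on 1 of 6 arrays, so the difference is between values that are nearly all at background. Of the 3450 clusters at levels 6 to 8, 1.19% were more than 1 log2 unit higher and 2.75% more than 1 lower, beside 0.670% and 2.97% at levels 4 to 6. Under level 4 these shares were 0.172% and 0.454%, and at 12 and over 0.195% and 1.04%. Without the Prss16-low arrays they were 0.870% and 2.17% at levels 6 to 8, and 0.893% and 2.39% at 4 to 6.

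**Figure D1:**
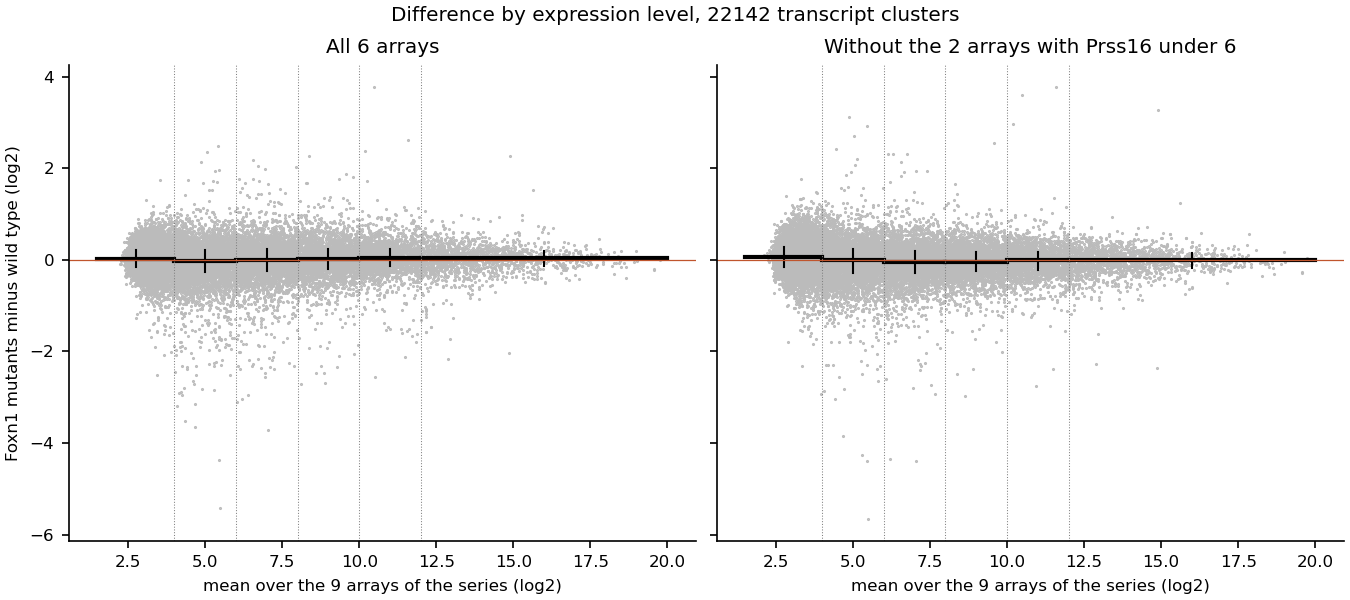
Each point is a transcript cluster, with its mean log2 value over 9 arrays on the x axis and the log2 difference of Foxn1 mutants from wild type on the y axis, over all 6 arrays (left) and over the 4 Prss16-high arrays (right). Black lines give the median of each level class and vertical lines its quartiles, and the medians stay between -0.04 and 0.06 at every level.

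Among strongly expressed genes, those named by p in the top class were Dcn, Mkrn1, Chd7 and Laptm4a, of which Dcn had the lowest p and is described with the higher genes. Laptm4a, a lysosomal membrane protein gene, read 15.79, 16.28 and 15.85 in wild type and 16.64, 16.74 and 16.66 in the mutants, 0.71 ± 0.21 higher (0.59 ± 0.25 on the Prss16-high arrays). Chd7, a chromatin remodeller known for its role in the neural crest and pharyngeal arches, read 13.05, 12.50 and 12.10 in wild type against 11.71, 11.45 and 11.39, a difference of -1.03 ± 0.26 (-0.75 ± 0.25). Chd7 was also among the lower genes drawn from those with disjoint groups, so its lack of overlap was fixed by that choice. Atf6, a sensor of unfolded protein in the endoplasmic reticulum, stood at 11.17, 10.89 and 10.93 in wild type and 9.90, 10.59 and 10.21 in the mutants, a difference of -0.76 ± 0.22 (-0.86 ± 0.22). None of these passed the adjusted test.

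The gene of lowest p on the higher side was Dcn, which encodes decorin, a small proteoglycan that binds collagen fibrils. Dcn stood at 14.61, 14.48 and 14.69 in wild type and at 15.80, 16.71 and 15.87 in the mutants. The genes named for lowest p on the higher and lower sides were drawn from those with disjoint groups. Their lack of overlap was fixed by that choice. Dcn was highest on the Prss16-low mutant 2. The Dcn difference was 1.53 ± 0.27 (SE, n = 3 per genotype; limma adjusted p = 1.00) and 1.25 ± 0.24 on the Prss16-high arrays. Slitrk4, an X-linked gene for a neuronal membrane protein that guides neurite growth, read 7.09, 7.11 and 7.26 in wild type and 8.70, 9.53 and 8.26 in the mutants, a difference of 1.68 ± 0.31 (1.30 ± 0.25). Mutant 2 was again the highest.

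Tbx18, a T-box gene of mesenchyme and mesothelial precursors, read 5.38, 5.30 and 5.95 in wild type and 7.14, 7.16 and 6.44 in the mutants. Its difference was 1.37 ± 0.29 and 1.17 ± 0.35 on the Prss16-high arrays. Calu, which encodes calumenin, a calcium-binding protein of the secretory pathway, varied little within a genotype, with 11.30, 11.28 and 11.32 in wild type and 12.29, 12.22 and 11.95 in the mutants. The Calu difference was 0.85 ± 0.19 and 0.81 ± 0.24, nearly the same with and without the 2 Prss16-low arrays. Mgp, a matrix protein that restrains calcification, stood at 7.80, 8.15 and 8.996 in wild type and 9.41, 11.00 and 9.93 in the mutants, 1.80 ± 0.45 higher (1.10 ± 0.38). The other genes of lowest p on this side were Dcaf6 (1.26 ± 0.25, then 1.24 ± 0.31), Klf14 (1.43 ± 0.33, then 1.00 ± 0.31), Susd2 (0.98 ± 0.24, then 0.84 ± 0.28), the complement gene C1qc and Vpreb1.

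Some of these genes also read above wild type on the 3 Tbx1 mutant arrays, which are compared with the same wild type arrays, so that a low value in wild type enters both. Dcn stood at 15.92 to 16.37 there, Calu at 11.75 to 12.13 and Upk3b, a mesothelial gene described below, at 10.77 to 13.10.

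Gadd45a, a stress gene induced by DNA damage and growth arrest, had the lowest p among autosomal genes on the lower side. It read 7.99, 7.40 and 7.53 in wild type and 6.41, 6.54 and 6.79 in the mutants, a difference of -1.06 ± 0.23 (SE, n = 3 per genotype; limma adjusted p = 1.00). On the Prss16-high arrays it was -0.86 ± 0.24. Coro1c, which encodes an actin-binding coronin, read 12.44, 11.56 and 11.55 in wild type and 10.41, 9.95 and 10.66 in the mutants, -1.50 ± 0.33 (-1.01 ± 0.30). Both genes were drawn from those with disjoint groups, so their lack of overlap was fixed.

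Mkrn1, an E3 ubiquitin ligase gene, stood at 13.26, 12.58 and 12.89 in wild type and 11.78, 11.89 and 11.73 in the mutants, -1.11 ± 0.24 (-0.98 ± 0.27). Car2 encodes carbonic anhydrase 2, an enzyme abundant in red cells among other tissues. Car2 read 8.90, 7.76 and 8.64 in wild type and 6.01, 7.18 and 5.75 in the mutants, -2.12 ± 0.55, and -2.32 ± 0.58 on the Prss16-high arrays. Fryl, a large scaffold protein gene, was the only lower gene among the 10 named for lowest p both with and without the 2 arrays, at -0.84 ± 0.22 and -1.07 ± 0.24. The remaining lower genes were Chd7, Ank3, Taf4 and the Y-linked Uty and Kdm5d, described with the sex-linked genes.

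**Figure D2:**
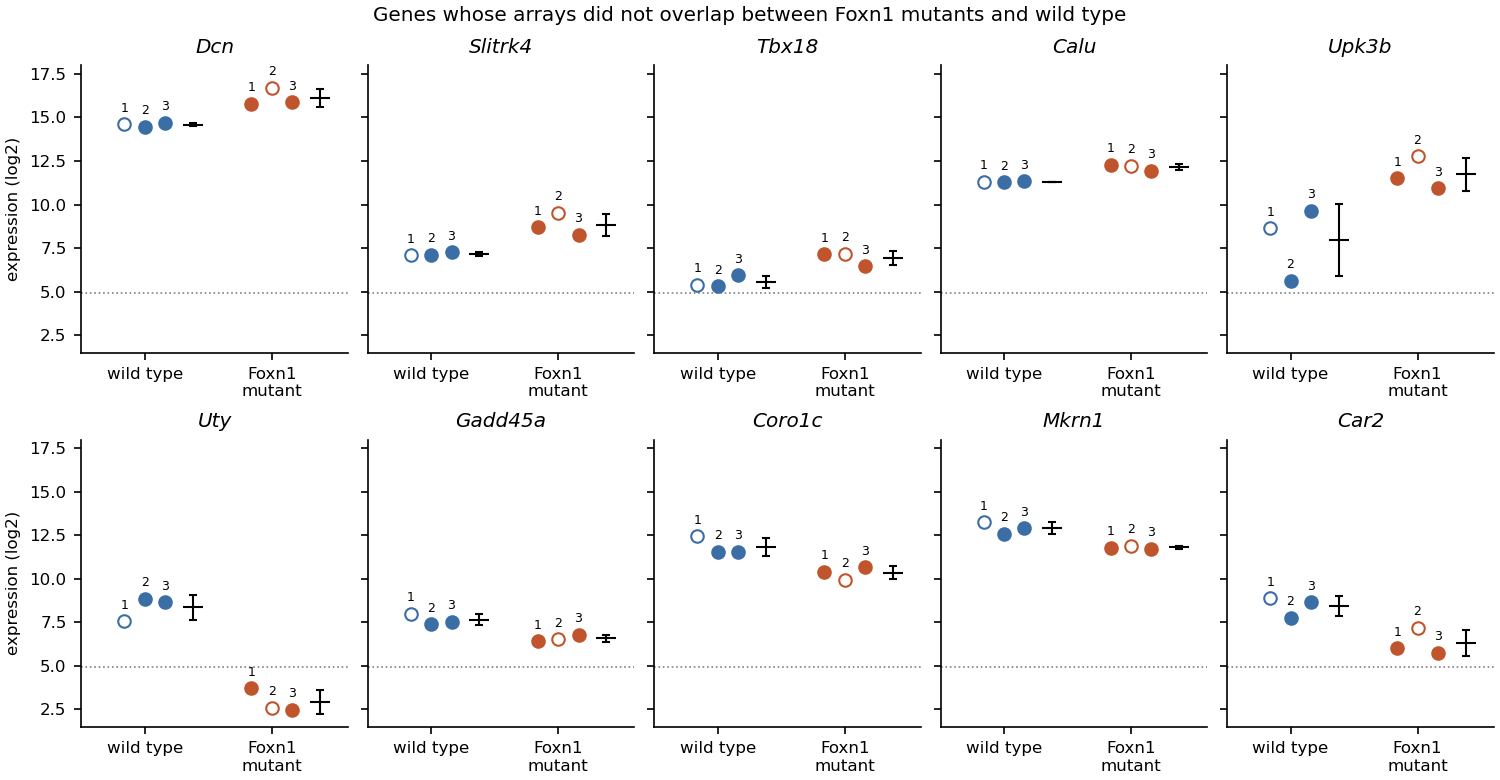
The log2 value of 10 genes on each of the 6 arrays, wild type and Foxn1 mutant side by side, with the mean and SD of each genotype as bars, open circles for the 2 Prss16-low arrays and a dotted line at the highest negative-control median (4.94). The top row holds genes that read higher in the mutants and the bottom row genes that read lower, and the groups do not overlap in any panel because the genes were chosen by that criterion.

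Leaving out the 2 Prss16-low arrays brought other genes to the lowest p-values. Retsat, an enzyme of vitamin A metabolism, read 8.04 and 7.87 on wild type 2 and 3 against 9.33 and 9.09 on mutants 1 and 3, 1.25 ± 0.22 higher, and over all arrays the difference was 1.28 ± 0.35. Npepps, a cytosolic aminopeptidase gene, read 9.68 and 9.77 against 8.26 and 8.15, a difference of -1.51 ± 0.23. On mutant 2 it was 9.70 and on wild type 1 8.99, so over all arrays the groups overlapped and the difference was -0.77 ± 0.40. Irs2, an adaptor of insulin and cytokine receptors, read 12.87 and 13.06 against 12.03 and 11.73, -1.09 ± 0.24 (-1.25 ± 0.52 over all arrays).

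Other genes named for low p in this smaller set read lower. Arhgap32 differed by -1.17 ± 0.22, the RNA-binding gene Atxn2 by -1.13 ± 0.22 and the ubiquitin ligase gene Ubr4 by -1.11 ± 0.23. On mutant 2 all 3 of these genes read within or above the wild type range, and their differences over all arrays were -0.76 ± 0.36, -0.51 ± 0.37 and -0.73 ± 0.25. Slc7a5, which imports large amino acids, read 9.86 and 9.65 against 8.87 and 8.70, -0.97 ± 0.22 (-1.17 ± 0.35). Higher in the mutants were Galntl6 (1.86 ± 0.30), Unc5d (1.09 ± 0.22), Vav3 (1.19 ± 0.25), Thbs3 (1.06 ± 0.23) and Amhr2 (1.24 ± 0.29). In the same order, their differences over all arrays were 1.10 ± 0.52, 1.29 ± 0.89, 0.94 ± 0.45, 1.11 ± 0.35 and 0.60 ± 0.38. The groups overlapped there for all but Thbs3. On wild type 2 and 3, Galntl6 (2.78 and 3.56) and Unc5d (3.91 and 3.86) read under the negative-control medians. Unc5d, a netrin receptor gene, was high on both Prss16-low arrays, at 6.40 and 8.11 against 3.86 to 5.03 on the others. With limma, none of these passed the adjusted test in either fit.

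Foxn1 itself was measured on every array. It read 7.78, 10.35 and 10.01 in wild type and 9.02, 8.73 and 9.66 in the mutants. The lowest value was that of wild type 1, and the groups overlapped. The difference was -0.24 ± 0.62 (SE, n = 3 per genotype; limma adjusted p = 1.00). Among the Prss16-high arrays both mutants lay below both wild type arrays, with a difference of -0.84 ± 0.39, where 17.1% of all clusters lay so. The sources used here do not place the probes relative to the altered parts of the gene, so its level does not check the genotype.

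The FOXN1-dependent list held 13 genes, and it showed no common shift between the genotypes. Of the 13, 6 were higher in the mutants, with a median of -0.06 (0.02 over all named genes). In the list 0 were past an unadjusted p of 0.05 or free of overlap, beside 4.05% and 8.28% of all clusters. On the Prss16-high arrays 4 were higher, with a median of -0.08. Groups did not overlap there at 1 higher and 4 lower genes (38.5%, beside 34.9% of all clusters). The list includes Prss16, by which these arrays were chosen. Dll4 alone was past an unadjusted p of 0.05 there (7.69%, beside 5.61% of all clusters). Dll4, the ligand through which thymic epithelium activates Notch in incoming progenitors, read 11.81 and 12.06 on wild type 2 and 3 and 11.11 and 11.33 on mutants 1 and 3, a difference of -0.72 ± 0.24. On the Prss16-low arrays Dll4 was at 6.78 in wild type and 8.28 in the mutant, and over all arrays its difference was 0.02 ± 1.30. In bulk RNA a lower level through fewer cells of a type and one through less RNA per cell cannot be told apart.

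Of the cytokine genes of this list, Il7 and Kitl were level between the genotypes on the Prss16-high arrays. The chemokine gene Ccl25 read higher on both mutants there, at 0.38 ± 0.32, and overlapped over all arrays (0.21 ± 0.28). Il7, the survival factor of early T cells, read 11.83 and 11.75 in wild type and 11.68 and 11.83 in the mutants, -0.04 ± 0.21. Kitl, the ligand of Kit on progenitors, read 10.66 and 10.46 against 10.64 and 10.48. Psmb11 differed by -0.08 ± 0.34 there. Prss16, which decided the arrays kept, differed by -0.22 ± 0.25. Ly75, an endocytic receptor of cortical epithelium, and Tbata, a stromal regulator, read lower on both mutants, at -0.80 ± 0.38 and -0.81 ± 0.57. Over all arrays the SE of Psmb11 was 2.19 and that of Prss16 3.00, so no difference of these genes smaller than several log2 units could be resolved with the Prss16-low arrays included.

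Promoters of the list were searched for the core motif of FOXN1, GACGC, on both strands, in the 300 bases from 250 before to 50 after each RefSeq start site (GRCm38.p6). Of the 13 genes, 10 had an entry, with 11 start sites, and 5 of the 11 promoters (45.5%) held the motif, against 34.6% of 19133 promoters of genes named on the array and 27.2% of all 32851. The 5 were those of Psmb11, Ccl25, Cxcl12, Kitl and Enpep. The motif was not in these windows of Foxn1, Dll4, Tbata, Ly75 and Ctsl. The promoter of Psmb11 and the first of 2 start sites of Ccl25 held it at 2 positions each, and the window of the second Ccl25 start site held none. They are shown because the genes read differently, with Psmb11 at background on the 2 Prss16-low arrays and at 10.36 to 10.66 on the others, and Ccl25 at 5.67 to 6.45 on all 6 arrays. The Psmb11 window is chr14:54625060-54625359 on the plus strand with matches that begin at positions -239 and -62 from the start site. The Ccl25 window is chr8:4324960-4325259 on the plus strand with matches at -56 and 13. Capitals mark GACGC or its reverse complement GCGTC.
Psmb11: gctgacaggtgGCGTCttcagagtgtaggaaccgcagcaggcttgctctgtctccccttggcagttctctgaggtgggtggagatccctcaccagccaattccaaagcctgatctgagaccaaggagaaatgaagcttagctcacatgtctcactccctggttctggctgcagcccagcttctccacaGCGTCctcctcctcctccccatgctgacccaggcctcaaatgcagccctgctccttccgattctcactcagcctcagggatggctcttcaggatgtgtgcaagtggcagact
Ccl25: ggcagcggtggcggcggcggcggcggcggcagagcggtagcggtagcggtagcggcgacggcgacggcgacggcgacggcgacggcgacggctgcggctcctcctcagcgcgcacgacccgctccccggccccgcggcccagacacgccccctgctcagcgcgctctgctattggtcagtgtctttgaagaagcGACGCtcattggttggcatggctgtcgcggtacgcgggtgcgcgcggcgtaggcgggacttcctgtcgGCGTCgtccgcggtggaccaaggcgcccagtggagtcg
A match is a stretch of letters and does not show binding.

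**Figure D3:**
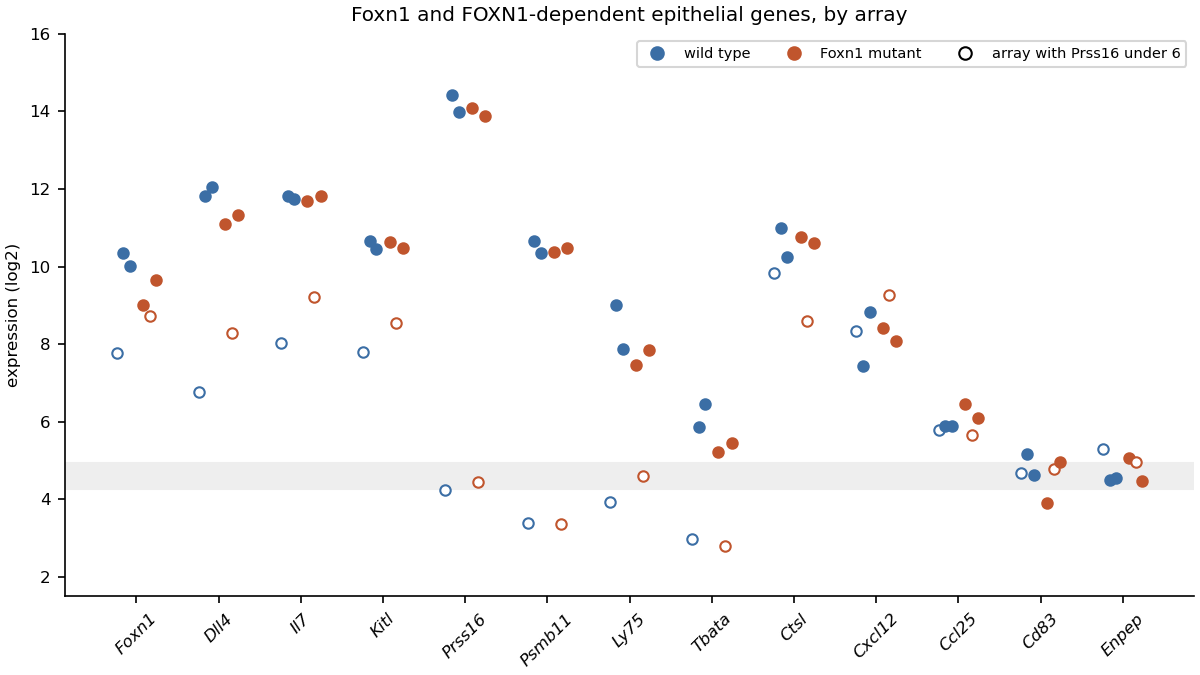
The log2 value of the 13 genes of the FOXN1-dependent list on each of the 6 arrays, with a grey band over the range of negative-control medians (4.27 to 4.94). The 4 Prss16-high arrays of both genotypes lie close together for Psmb11, Il7 and Kitl, and the 2 Prss16-low arrays lie below them. The split of Prss16 itself is fixed, because that gene defined the sets.

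General epithelial genes followed the arrays rather than the genotypes. Of 17 measured genes of epithelial identity and the pharyngeal pouch, 8 were higher in the mutants, with a median of -0.00, and 5 on the Prss16-high arrays, with a median of -0.15. The keratin gene Krt8 read 15.89 and 15.97 on wild type 2 and 3 and 15.64 and 15.62 on mutants 1 and 3, but 12.12 and 12.37 on the Prss16-low arrays. Epcam, an adhesion molecule of most epithelia, lay between 8.33 and 8.83 on all 6 arrays. Trp63, a regulator of stratified epithelium, stood at 11.55 on wild type 1 and 12.82 on mutant 2, against 13.16 to 13.40 on the others. Krt8, Epcam and Trp63 were thus far above the negative controls on the Prss16-low arrays, where Prss16 and Psmb11 were at background.

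Genes of medullary epithelium included a claudin that kept the genotypes apart, 1 of 12 (8.33%) beside 8.28% of all clusters. Cldn7, a tight junction gene, read 9.94, 9.69 and 9.62 in wild type and 8.95, 8.94 and 8.82 in the mutants, -0.85 ± 0.23 and -0.77 ± 0.28 without the 2 arrays. Cldn7 was 1 of 2 genes among 12 of that list past an unadjusted p of 0.05 (16.7%, beside 4.05% of all clusters), both lower. The other was Ccl21a, a chemokine that draws progenitors to the rudiment and is also made by parathyroid tissue, at 14.57, 12.15 and 13.21 in wild type and 11.38, 11.05 and 12.84 in the mutants. The Ccl21a groups overlapped, with -1.55 ± 0.60 over all arrays and -0.57 ± 0.48 without the 2. Aire and Fezf2, which direct self-antigen expression in mature medullary cells, read under 5 on all 6 arrays.

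Antigen presentation genes were at like levels in both genotypes when Prss16 was high, a likeness in part set by choosing the arrays on Prss16. Class II genes had a median of 0.04, and -0.17 on the Prss16-high arrays, with 5 and then 2 of 8 higher. H2-Ab1 read 11.49 and 10.65 on wild type 2 and 3 and 10.77 and 11.27 on mutants 1 and 3, with 6.41 and 6.76 on the Prss16-low arrays. Class I genes had medians of -0.03 and -0.04 over 11 genes. Psmb9, an immunoproteasome subunit, also divided the arrays by Prss16, at 3.71 and 3.64 on the Prss16-low arrays and 11.00 to 11.87 on the others.

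Lymphocyte and pan-leukocyte genes showed the same layout. Ptprc, which encodes the leukocyte antigen CD45, read 6.44, 11.87 and 12.36 in wild type and 11.82, 5.87 and 12.33 in the mutants. Of 18 T lineage genes 6 were higher in the mutants, with a median of -0.18, and on the Prss16-high arrays 5, with a median of -0.15. Without the Prss16-low arrays Notch1 had the lowest p of them, at 7.48 and 8.66 on wild type 2 and 3 against 6.82 and 7.03, -1.15 ± 0.36 there and -0.78 ± 0.54 over all arrays. Of 15 pan-leukocyte genes 8 were higher over all arrays and 2 on the Prss16-high arrays, with medians of 0.02 and -0.13. Itgb2, the integrin chain shared by leukocytes, differed by -1.15 ± 0.45 and -1.21 ± 0.33, and Lcp1, a leukocyte actin bundler, by -0.10 ± 1.21 and -0.56 ± 0.25.

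Innate lymphoid genes included one split widely by array. Gzma, which encodes the granule protease granzyme A, read 15.54 and 14.64 on wild type 2 and 3, 15.04 and 15.58 on mutants 1 and 3, and 2.91 and 3.69 on the Prss16-low arrays. The 11 genes of the innate lymphoid list had medians of -0.10 and -0.17. Klrd1, a killer cell lectin gene, was lower on both Prss16-high mutants (-1.13 ± 0.40), and Klrb1c was higher on both (0.64 ± 0.27), with Klrd1 at 3.18 to 5.46 and Klrb1c at 3.28 to 4.60 on the 6 arrays, near the negative controls.

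Macrophage genes stood apart from the other leukocyte genes in not following Prss16. Of 14 such genes, 11 were higher in the mutants, with a median of 0.49, and on the Prss16-high arrays 8, with a median of 0.16. The list mean was 6.58, 6.97 and 7.56 in wild type and 7.28, 7.56 and 7.46 in the mutants. C1qc, a chain of complement C1q, was the member whose groups did not overlap, 7.14% of the list beside 8.28% of all clusters. It read 4.77, 4.45 and 4.87 in wild type and 5.39, 5.72 and 5.56 in the mutants. The difference was 0.86 ± 0.21, and 0.81 ± 0.25 without the 2 arrays. C1qc was above its array's negative-control median on 5 of 6 arrays. The chain C1qa read 7.94, 7.68 and 8.55 against 8.38, 8.81 and 8.72, overlapping by one array, at 0.58 ± 0.26 and then 0.44 ± 0.31. The scavenger receptor gene Mrc1 differed by 0.93 ± 0.43 and then 0.50 ± 0.48. Lyz2 and Fcer1g were lower in the mutants, at -0.50 ± 0.55 and -0.32 ± 0.23.

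Of the 39 lists, that of matrix genes had the largest share of members higher in the mutants. Of 20 extracellular matrix genes, 19 were higher, with a median of 0.60. An unadjusted p of 0.05 was passed by 4 (20%, beside 4.05% of all clusters). Groups did not overlap at 6 (30%, beside 8.28%), all higher. On the Prss16-high arrays 17 were higher with a median of 0.30. There 3 higher and 1 lower were past an unadjusted p of 0.05 (20%, beside 5.61%). The list mean was 9.15, 9.003 and 9.18 in wild type and 9.50, 10.59 and 9.33 in the mutants, so that mutant 2 stood more than 1 log2 unit above the other 5 arrays. Without mutant 2 the list median was 0.33. The 6 without overlap were Dcn, Col3a1, Lum, Col6a3, Eln and Mfap5.

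Col3a1, a fibrillar collagen, read 10.53, 10.72 and 11.11 in wild type and 11.54, 12.53 and 11.53 in the mutants, 1.08 ± 0.30, and 0.62 ± 0.24 on the Prss16-high arrays. Lum, the proteoglycan lumican, read 14.69, 14.45 and 14.90 against 15.27, 16.51 and 15.21, 0.98 ± 0.34 and then 0.57 ± 0.25. In both genes mutant 2 was the highest and gave much of the mean difference. Eln, elastin, read 6.98, 5.77 and 6.54 in wild type and 7.55, 10.80 and 7.03 in the mutants. Its difference was 2.03 ± 1.53, and 1.13 ± 1.70 on the Prss16-high arrays. Fn1, fibronectin, was the exception to the list, at 13.48, 14.09 and 14.74 against 13.81, 14.45 and 13.49, -0.19 ± 0.35 and then -0.76 ± 0.29. Of all 42 collagen genes measured, 31 were higher in the mutants with a median of 0.20, and 29 on the Prss16-high arrays with a median of 0.17.

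Mesenchymal regulators were higher mainly through mutant 2. Of 19 genes, 14 were higher with a median of 0.36, against 8 with a median of -0.03 on the Prss16-high arrays. Sox9 read 6.99 to 7.27 in wild type and 7.20, 9.37 and 6.98 in the mutants, so that its difference of 0.72 ± 0.54 became -0.04 ± 0.26. Alx1, a homeobox gene of cranial mesenchyme, read 6.07, 4.91 and 5.63 in wild type and 6.36, 6.41 and 6.33 in the mutants, 0.83 ± 0.38 and then 1.07 ± 0.43. Osr1 overlapped, at 0.92 ± 0.59 and 0.40 ± 0.53. Together with Tbx18, Alx1 was the member past an unadjusted p of 0.05 on the Prss16-high arrays (10.5% of the list, beside 5.61% of all clusters).

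Mesothelial genes, a list drawn up after the values had been seen and because Upk3b stood out, were among those with the widest differences. The mesothelium is the epithelial lining of the body cavities, which also covers organs. Upk3b, a uroplakin gene used as a mesothelial marker, read 8.63, 5.62 and 9.63 in wild type and 11.51, 12.78 and 10.94 in the mutants, 3.78 ± 0.98, and 3.59 ± 1.16 on the Prss16-high arrays. Upk1b read 6.12, 4.52 and 5.23 against 6.80, 7.78 and 6.62, 1.77 ± 0.58 and then 1.83 ± 0.58. In both genes the mutants lay above all wild type arrays, and wild type 2 was the lowest.

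Other mesothelial genes gave a mixed picture. Bnc1, a zinc finger gene of mesothelium and stratified epithelium, stood at 5.66, 6.83 and 7.16 in wild type and 8.17, 7.80 and 7.48 in the mutants, 1.27 ± 0.42 and 0.83 ± 0.39. Gpm6a, a membrane glycoprotein of neurons and mesothelium, read 8.40, 8.92 and 9.61 against 10.29, 11.61 and 10.20, 1.72 ± 0.60 and 0.98 ± 0.62. Msln, mesothelin, read 4.13 to 4.70 in wild type and 7.38, 4.70 and 4.61 in the mutants, so that it was clearly above background on mutant 1 alone. Wt1 overlapped between the genotypes, at 0.85 ± 0.58. Of 10 genes 9 were higher, with a median of 0.97, and 8 on the Prss16-high arrays, with a median of 0.79. The part of mesothelial tissue on the lobes in the matrix and Tbx18 values was not tested.

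**Figure D4:**
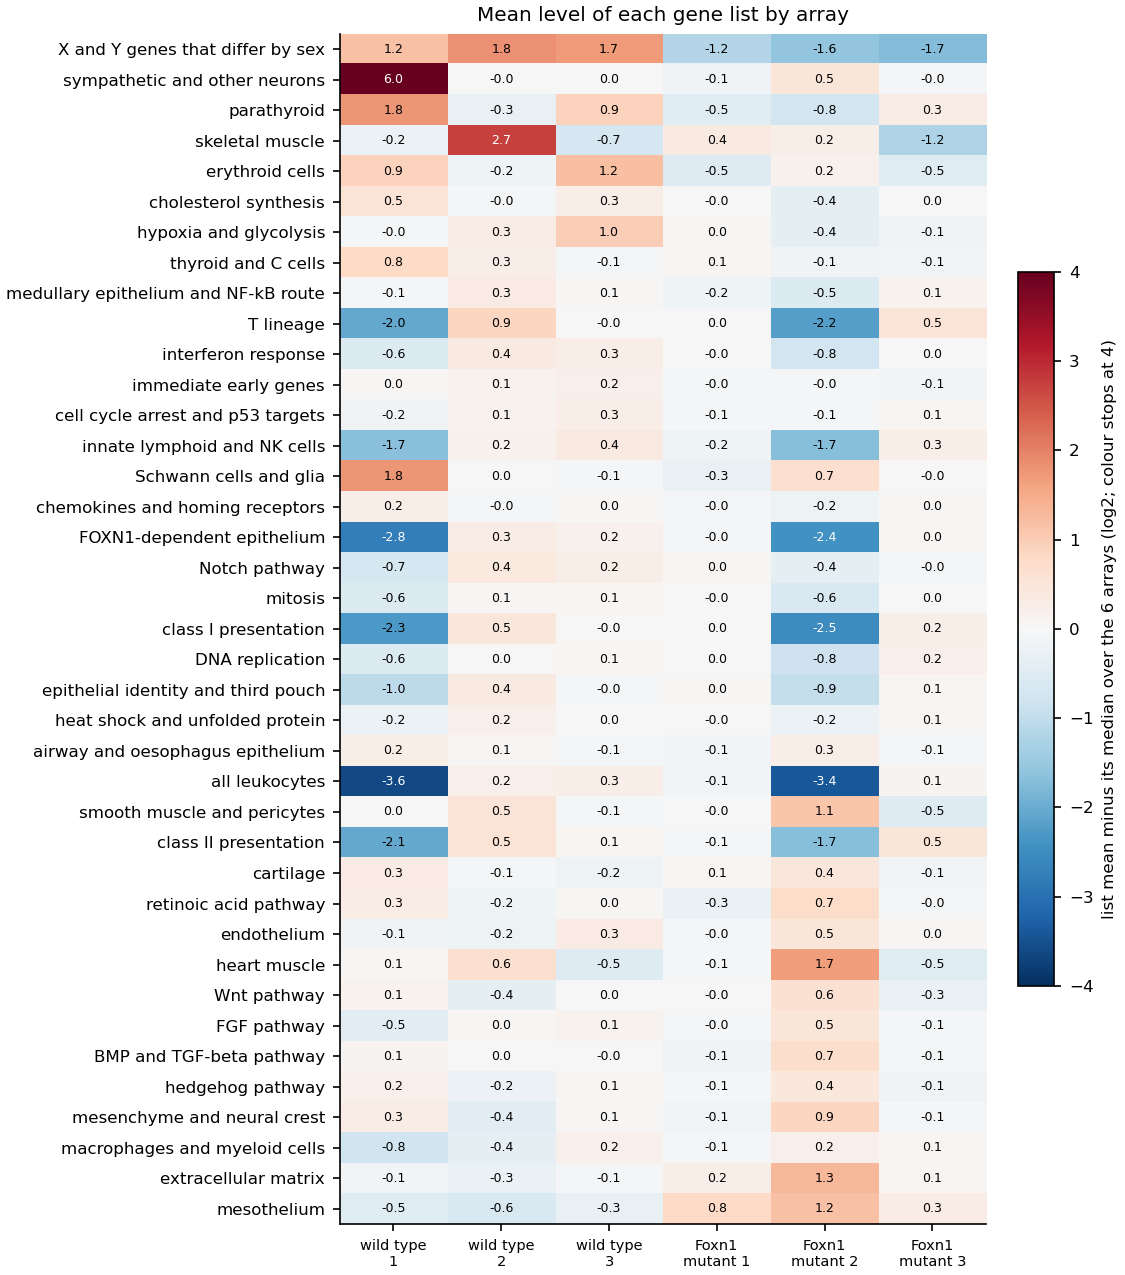
Heat map of the mean log2 value of each gene list on each of the 6 arrays, minus the median over those arrays. Wild type 1 and mutant 2 are low for FOXN1-dependent, T lineage and leukocyte genes, wild type 1 is high for neurons, wild type 2 for skeletal muscle and mutant 2 for matrix and heart muscle.

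Red cell genes read lower in the mutants, mostly against wild type 1 and 3. The erythroid list mean was 10.10, 8.99 and 10.37 in wild type and 8.66, 9.35 and 8.69 in the mutants. Alas2, which starts heme synthesis in erythroid cells, read 14.74, 13.34 and 14.42 in wild type and 12.38, 12.79 and 12.13 in the mutants. The difference was -1.73 ± 0.46, and -1.63 ± 0.52 without the 2 arrays. Over all arrays Alas2 alone of the 11 genes had groups that did not overlap (9.09%, beside 8.28% of all clusters). An unadjusted p of 0.05 was passed by 3, all lower (27.3%, beside 4.05% of all clusters). On the Prss16-high arrays groups did not overlap at 7 of 11, all lower, where 17.1% of all clusters lay so. Fech, which completes heme, stood at 11.68, 10.65 and 11.30 against 9.65, 10.74 and 9.95, -1.10 ± 0.38 and -1.17 ± 0.36. Of 11 erythroid genes 2 were higher, with a median of -0.44, and 1 on the Prss16-high arrays, with a median of -0.49. The regulators Klf1 and Gata1 read under 5 on all 6 arrays, with differences of 0.04 ± 0.28 and -0.39 ± 0.36.

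Endothelial genes differed little, while smooth muscle and pericyte genes depended on the arrays included. The 14 endothelial genes had a median of 0.11 and of 0.04 on the Prss16-high arrays, and none was past an unadjusted p of 0.05 over all arrays. Cdh5, the endothelial cadherin gene, read 11.40, 10.88 and 11.03 in wild type and 10.74, 11.92 and 10.65 in the mutants. Eng, a TGF-beta co-receptor of endothelium, was the member past that threshold without the 2 arrays, at 6.95 and 7.45 against 6.01 and 6.68 (-0.86 ± 0.29). That is 7.14% of the list, beside 5.61% of all clusters. The 13 smooth muscle and pericyte genes had a median of 0.04 with 7 higher, which became -0.47 with 1 higher without the 2 arrays. Groups did not overlap there at 5 of 13, all lower, where 17.1% of all clusters lay so. Acta2, smooth muscle actin, ranged from 7.41 to 12.05 within wild type and from 6.89 to 11.39 within the mutants, a spread far wider than the difference of -0.33 ± 1.41. Without the 2 arrays the Acta2 difference was -1.53 ± 1.59.

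Genes of neighbouring tissues marked single arrays. Neuronal genes were high on wild type 1, where the list mean was 11.25 against 5.16 to 5.77 on the other 5 arrays. Their median of -2.10, with 0 of 16 higher, became -0.13 with 7 of 16 higher on the Prss16-high arrays. Skeletal muscle genes were high on wild type 2, with a list mean of 8.21 against 4.25 to 5.84. Myh3, embryonic myosin, read 13.99 there and 5.08 to 9.94 on the other arrays. The muscle median was -0.68 with 0 of 16 higher, and -1.50 with 1 of 16 higher on the Prss16-high arrays, which retain wild type 2. Heart muscle genes were highest on mutant 2, at a list mean of 6.48 against 4.31 to 5.45, and Myl7, an atrial myosin light chain, read 10.71 there and at most 5.15 on the others.

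Some further genes were high on wild type 2 alone. With the title code as a fixed block, the fit of the Prss16-high arrays with the Tbx1 mutants called 26 clusters in limma, all lower in the mutants, where the fit without a block called 0. In this fit the contrast rests on code B, where wild type 2 is the single wild type array. Mmp3, a matrix metalloprotease gene, had the lowest adjusted p in limma (0.00753) and read 9.43 on wild type 2 but 3.14 and 2.88 on the other wild type arrays and 3.08 to 3.38 on the mutants. Tspan1 read 10.94 on wild type 2 and 3.91 to 5.58 on the other 5 arrays, and the mucin gene Muc1 read 9.46 there and 4.99 to 6.70 elsewhere. The skeletal actin gene Acta1 and the Y-linked Uty were also among the 26. Values of this kind rest on 1 wild type array.

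Parathyroid genes varied widely between arrays. Pth, parathyroid hormone, read 14.13, 11.89 and 13.82 in wild type and 12.22, 11.95 and 13.25 in the mutants, -0.81 ± 0.58 and -0.12 ± 0.62 without the 2 arrays. The parathyroid develops from the same pouch as the thymus. Casr, its calcium sensor, read 13.03, 10.69 and 12.15 against 9.85, 8.13 and 11.57, -2.11 ± 0.85 and then -0.71 ± 0.68. All 5 parathyroid genes were lower in the mutants, with medians of -0.81 and -0.21. Thyroid genes lay mostly at background, except Pax8, which read 7.30 and 6.17 on wild type 1 and 2 and 3.48 to 4.28 on the others. Cartilage, airway and Schwann cell lists had medians of 0.05, 0.00 and -0.08, and of 0.08, -0.21 and -0.16 on the Prss16-high arrays.

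**Figure D5:**
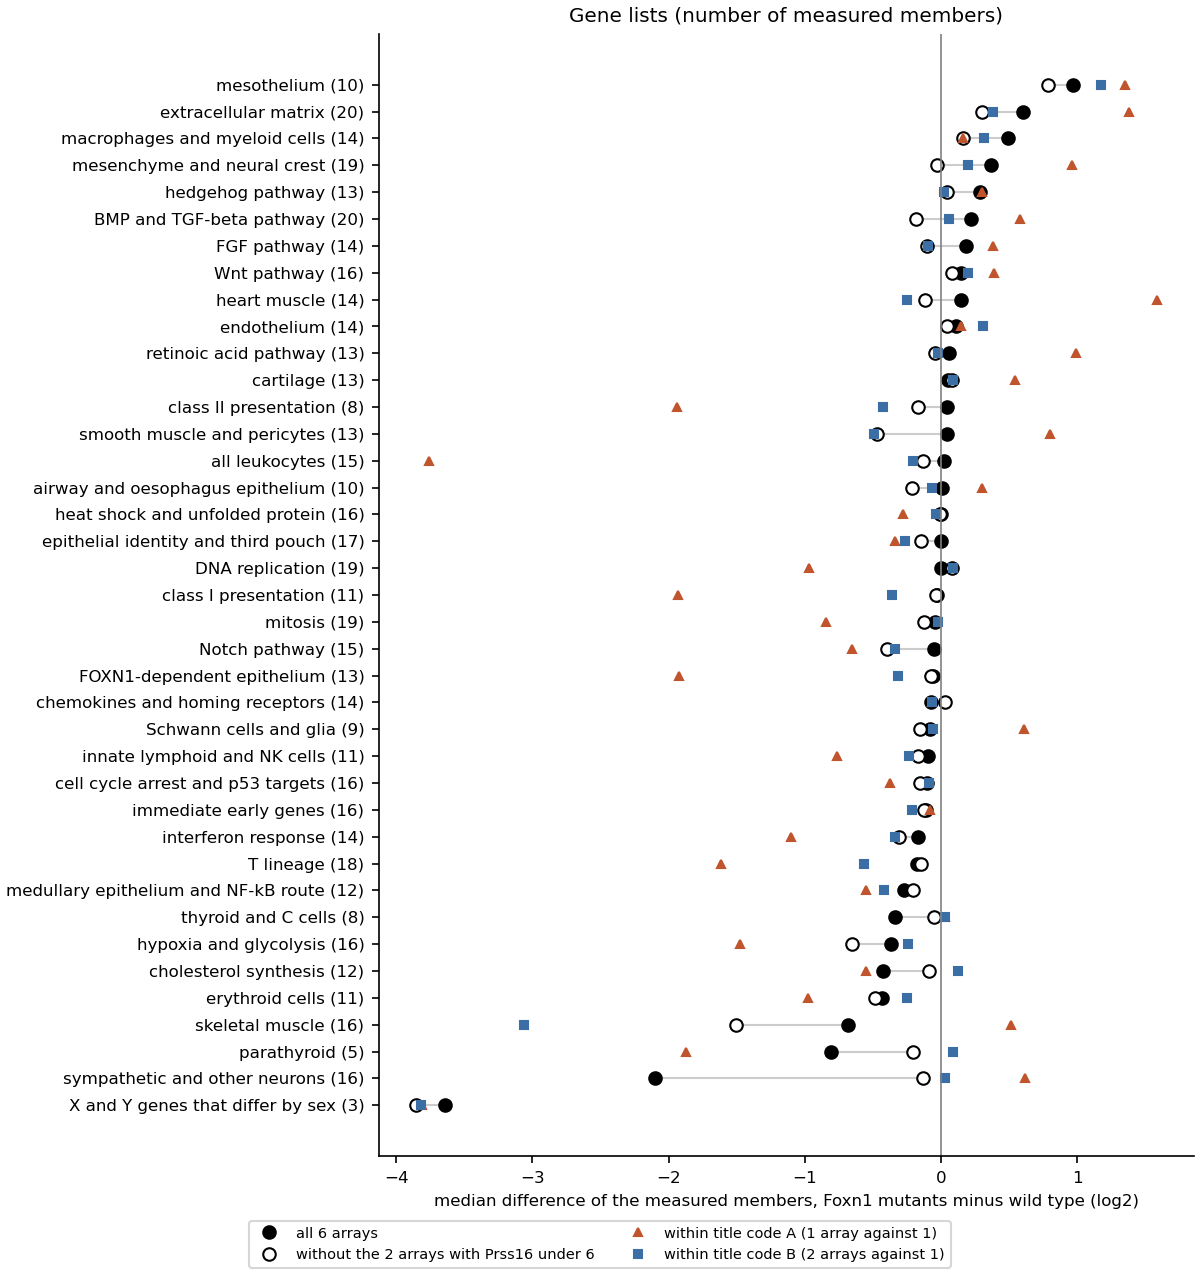
The median log2 difference of Foxn1 mutants from wild type for each gene list, over all 6 arrays (filled circles), over the 4 Prss16-high arrays (open circles), within code A (triangles) and within code B (squares). Matrix, mesothelial and macrophage lists are among those above 0 under all 4. Hypoxia, erythroid, T lineage and FOXN1-dependent lists are among those below 0 under all 4. Medians of the neuronal, skeletal muscle and pan-leukocyte lists change sign with the arrays included.

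Cell division genes were level. Of 19 DNA replication genes 9 were higher with a median of -0.00, and 12 on the Prss16-high arrays with a median of 0.08. Of 19 mitotic genes 6 were higher in both sets, with medians of -0.04 and -0.13. Rrm2, the small subunit of ribonucleotide reductase, was the exception in the first list, at 9.36, 8.94 and 9.07 in wild type and 8.38, 7.44 and 8.63 in the mutants, -0.98 ± 0.30 and then -0.50 ± 0.22. Ube2c, which drives mitotic exit, read 13.01, 13.12 and 13.07 against 12.46, 12.60 and 12.74, -0.46 ± 0.18 and -0.49 ± 0.23. Mki67, the proliferation marker Ki-67, lay between 15.25 and 15.90 on all 6 arrays. Among p53 targets the median was -0.10 and -0.15, with Cdkn1a, the inhibitor p21, at 11.25, 13.25 and 12.38 in wild type and 11.88, 9.52 and 11.55 in the mutants (-1.31 ± 0.66, then -1.10 ± 0.39).

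Hypoxia and glycolysis genes read lower in the mutants with and without the 2 arrays. Of 16 genes 1 was higher over all arrays, with a median of -0.36, and 0 on the Prss16-high arrays, with a median of -0.66. Groups did not overlap at 2 of 16 over all arrays, both lower, where 3.42% of all clusters lay so. On the Prss16-high arrays they did not overlap at 8 of 16, all lower, where 17.1% of all clusters lay so. Hk2, a hexokinase, read 9.76 and 10.46 on wild type 2 and 3 against 8.92 and 9.08 on mutants 1 and 3, -1.11 ± 0.36, and -0.56 ± 0.47 over all arrays. Adm, the hypoxia-induced peptide adrenomedullin, read 11.62, 9.97 and 8.39 in wild type and 8.06, 8.14 and 8.10 in the mutants, -1.89 ± 0.65 and then -1.09 ± 0.48. Egln3, an oxygen-sensing hydroxylase, read 12.20, 9.51 and 10.27 against 9.11, 6.79 and 9.09, -2.33 ± 0.76 and -0.80 ± 0.37. The list mean was 9.19, 9.54 and 10.22 in wild type and 9.28, 8.86 and 9.10 in the mutants, so that wild type 3 stood above the rest and wild type 1 lay within the mutant range. Without wild type 3 the list median was -0.04. Ndrg1 and Ddit4 were highest on wild type 3, at 12.05 and 8.39, against at most 10.01 and 6.66 elsewhere.

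Stress and metabolic genes outside this list were less uniform. Heat shock and unfolded protein genes had medians of -0.00 and -0.01, with 8 of 16 higher in both sets, and immediate early genes -0.11 and -0.13. All 12 cholesterol synthesis genes were lower over all arrays, with a median of -0.42, but 3 were higher and the median was -0.09 on the Prss16-high arrays. Dhcr7, the last enzyme of that route, read 9.999, 9.74 and 10.06 in wild type and 9.48, 9.61 and 9.36 in the mutants, -0.45 ± 0.20 and -0.48 ± 0.24. Interferon-stimulated genes had medians of -0.17 and -0.31, with Usp18 at 5.11, 5.38 and 5.56 in wild type and 4.01, 4.31 and 4.80 in the mutants, -0.98 ± 0.26 and -1.07 ± 0.31. Ifit3 and Mx2 also had groups that did not overlap, at -0.85 ± 0.30 and -0.62 ± 0.21, with all values under the highest negative-control median. On the Prss16-high arrays these differences were -0.82 ± 0.31 and -0.44 ± 0.24. Over all arrays Usp18, Ifit3 and Mx2, the members without overlap, were 21.4% of the list, beside 8.28% of all clusters.

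Among signalling lists, that of the Notch pathway had the lowest median without the 2 arrays. Next were interferon response (-0.31), BMP and TGF-beta (-0.18) and FGF (-0.10). Of 15 Notch pathway genes 7 were higher with a median of -0.05, and 2 with a median of -0.40 on the Prss16-high arrays. Receptor and ligand genes were among the lower ones there, with Notch1 and Dll4 given above and Notch3, a mural cell receptor, at -0.51 ± 0.25. The targets did not all do the same: Hes1 differed by -0.40 ± 0.22 and Hey1 by -0.07 ± 0.22. Nrarp, a feedback inhibitor of the pathway, read higher, at 6.43 and 6.23 on the mutants against 5.93 and 5.60 in wild type (0.57 ± 0.23).

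The Wnt list had medians of 0.14 and 0.08. Kremen1, a receptor of the Dickkopf inhibitors that lowers Wnt signalling in thymic epithelium among other tissues, read 9.50 and 9.30 on wild type 2 and 3 against 8.23 and 8.25 on mutants 1 and 3, -1.16 ± 0.27, and -0.76 ± 0.30 over all arrays. Lgr5, an R-spondin receptor gene, differed by -0.72 ± 0.29 over all arrays and -0.77 ± 0.26 without the 2, on values near background. Secreted modulators such as Sfrp1, Sfrp2, Dkk3 and Rspo3 were higher in both sets without passing an unadjusted p of 0.05, with Rspo3 at 0.96 ± 0.76 and 0.83 ± 0.58.

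Among BMP and TGF-beta genes, the medians were 0.22 and -0.18. The ligand gene Bmp2 read 3.41, 2.85 and 3.62 in wild type and 4.03, 4.20 and 3.95 in the mutants, 0.77 ± 0.23 and 0.76 ± 0.28, all under the negative-control medians. Fst, which encodes the activin inhibitor follistatin, read 8.22, 7.42 and 6.06 against 5.50, 6.63 and 5.82, -1.25 ± 0.55 and -1.08 ± 0.50. The BMP target Id3 differed by 1.15 ± 0.48, and by 0.51 ± 0.32 without the 2 arrays. FGF genes had medians of 0.18, with 12 of 14 higher, and -0.10, with 3 of 14 higher, so that the direction of the list turned with the 2 arrays.

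Retinoic acid genes had medians of 0.06 and -0.04, and 1 member kept the genotypes apart (7.69%, beside 8.28% of all clusters). Cyp26b1, which degrades retinoic acid, read 4.35, 5.04 and 4.67 in wild type and 3.59, 4.01 and 3.56 in the mutants, -0.97 ± 0.23 and -1.28 ± 0.23 on the Prss16-high arrays. It exceeded the negative-control median on 2 of 6 arrays, so its size is limited by background. The synthesising enzyme Aldh1a2 overlapped between the genotypes, at 0.69 ± 0.50 and 0.40 ± 0.53. Hedgehog genes had medians of 0.28 and 0.04, with the receptor and target Ptch1 at 10.30, 8.49 and 9.18 in wild type and 8.49, 8.61 and 8.01 in the mutants (-0.95 ± 0.43, then -0.58 ± 0.35).

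Families were taken by gene symbol, so their members were not picked singly, but the families were chosen with earlier results known. Of the 28 described, some are given here. Ribosomal protein genes, at high levels, were higher for 55 of 72 with a median of 0.08, and for 28 of 72 with a median of -0.02 on the Prss16-high arrays. Respiratory chain subunits had medians of 0.06 and 0.03 over 89 genes and proteasome subunits 0.10 and 0.08 over 50. Chemokine genes were higher for 10 of 38 and 12 of 38, with medians of -0.07 and -0.24, and integrins for 10 of 29 and 8 of 29, with medians of -0.12 and -0.28. Zinc finger proteins, the largest family of regulators here with 358 genes, had medians of 0.03 and 0.01. Olfactory receptor genes, 1091 in number and nearly all at background, had medians of 0.04 and 0.06, and their groups failed to overlap at 11.5%, beside 8.28% of all clusters. Vomeronasal receptors, also at background, had medians of 0.10 and 0.15.

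By chromosome, medians lay between -0.003 (chromosome 5) and 0.056 (X) over all arrays, Y apart. On the Prss16-high arrays they lay between -0.020 (chromosome 19) and 0.043 (X). Chromosome 11, which carries Foxn1, had 1475 named clusters with a median of 0.019, and of -0.017 on the Prss16-high arrays. The X chromosome had 799 named clusters, 57.8% of them higher in the mutants, and 55.8% on the Prss16-high arrays.

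Sex-linked genes divided the genotypes on all 6 arrays. Uty, a Y-linked histone demethylase gene, read 7.56, 8.84 and 8.66 in wild type and 3.71, 2.60 and 2.47 in the mutants, -5.43 ± 1.14 and -5.66 ± 1.43 without the 2 arrays. Kdm5d, its Y-linked neighbour in function, read 6.33, 6.85 and 6.92 against 3.54, 3.11 and 2.52, -3.64 ± 0.93 and -3.85 ± 1.19. All mutant values of both genes lay under the negative-control medians, so the sizes are limited there. Eif2s3y, also on the Y chromosome, lay at background on all 6 arrays, at 2.18 to 2.75. Among the Tbx1 mutants, Uty was at 8.47 on replicate 1 and at background on the others, which widened the spread of the fit. With limma, Uty, Kdm5d and an unnamed Y cluster passed an adjusted p of 0.05 when that array was left out, and the unnamed cluster did so when only the 6 arrays were fitted (adjusted p = 0.0211). Because every wild type array carried Y-linked signal and no mutant array did, a difference by sex and a difference by genotype cannot be told apart in any gene of this comparison.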

How the data were processed

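Total RNA of thymic lobes was measured on 9 Clariom S arrays. Values are log2, in the table the authors deposited, and were not normalized further. The sources used here name neither its software, normalization nor genome build. Control features and 64 unmapped clusters were left out, leaving 22142 transcript clusters. The platform annotation named 19527 of them, with 19494 distinct symbols, and promoters came from RefSeq (GRCm38.p6). limma 3.58.1 (R 4.3.3) estimated a mean per genotype from all 9 arrays, with two-sided moderated tests and Benjamini-Hochberg adjustment over all clusters at 0.05. It was fitted again without the 2 arrays on which Prss16 reads under 6. Errors with ± are SEs from these fits. The number of arrays limits the precision.

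The genotypes compared, the gene lists and the families were chosen with earlier results of these data known, and the mesothelium list after its values were seen. For genes with more than 1 cluster, that of highest mean level was used. Named genes were Foxn1, the lobe markers Prss16, Psmb11 and Ptprc, and those of lowest p per direction among genes with disjoint groups and a group mean above background, with and without the 2 arrays. They were joined by the first members and those of lowest p in each list and level class. Other genes named (among them Dll4, Il7, Kitl, Ly75, Tbata, Gzma, Psmb9, Lcp1, Eln, Col6a3, Mfap5, Sox9, Fn1, Gpm6a, Hk2, Ddit4, Myh3, Eng, Nrarp, Hey1, Rspo3, Dkk3, Sfrp1, Sfrp2, Lyz2, Fcer1g, Klf1, Gata1, Wt1 and those high on wild type 2) were chosen after their values were seen. The limma fit was tested on simulated data with planted differences. Plots used matplotlib 3.10.9 and Python 3.11.15.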

Additional observations from a re-analysis of the deposited data

How the results depend on the processing

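Over all arrays limma called 0 clusters, and 0 remained the count under quantile normalization, median centring, both level filters, an intensity trend, array weights, the title code as a fixed or random block, an adjusted p of 0.10 and without the X and Y clusters or with the unmapped ones (added after seeing the data). With only the groups compared it called 1, an unnamed Y cluster. Leaving out each array in turn gave 0 to 3, where the 3 were Uty, Kdm5d and that cluster, without Tbx1 mutant replicate 1. Without the 2 Prss16-low arrays it called 0 under quantile normalization, median centring, both level filters, the trend, weights, the random block, an adjusted p of 0.10 and only the groups compared, but 26 with the title code as a fixed block, Uty and Acta1 among them, a contrast that rests on wild type replicate 2. Of 39 list medians 11 took the other sign without the 2 arrays, 16 without mutant 2, 5 without wild type 1, 10 without wild type 2 and 10 without wild type 3, against 6 under median centring and 3 under quantile normalization. Of 228 named genes 23 did so without the 2 arrays, 16 to 30 when 1 array of either genotype was left out, 56 within code A and 33 within code B. No paired analysis was possible because the labels give no replicate numbers that the genotypes share, and the title codes served as blocks instead. A group of 2 arrays rests on the spread of the others, and values under about 5 lie at background.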
